A study of Homo sapiens with 6 samples.

Results

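MYC, together with 43 genes of ribosome biogenesis and growth metabolism, many of them known MYC targets, was followed in LS174T cells, a human colon adenocarcinoma line. The 44 genes were taken from a fixed list. Each was read from the brightest of its probe sets that the platform annotation assigns to that gene alone. Of the 44, 37 could be tested, among 14308 genes tested in all. NOP56, DKC1, BOP1 and PPAN had only probe sets listed under several genes, and GNL3, EBNA1BP2 and DDX18 are not named in the annotation used, so that these 7 are given no value. The filter on dim probe sets removed no gene of the list, and all 37 lay above the level of the array's Bacillus control probe sets (an intensity of 45.7). The 2 groups, each of 3 cultures with 1 array per culture, received the vehicle DMSO or CompE at 250 nM, both for 48 h. All cultures come from the same line, kept in medium with serum. The labels give CompE as an abbreviation alone. In common use it stands for Compound E, which blocks gamma-secretase and so keeps Notch receptors from being cut into their active intracellular form.

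The transcription factor MYC pairs with MAX and binds the E-box, a short DNA motif, in the promoters of many growth genes. Ribosome biogenesis begins in the nucleolus, where RNA polymerase I copies the ribosomal RNA precursor. Small nucleolar ribonucleoproteins (snoRNPs) then modify this RNA, and separate sets of assembly factors cut and fold it into the small (40S) and the large (60S) subunit. In the intestinal crypt, MYC acts downstream of Wnt signalling and supports the growth of proliferating cells. In T cell leukaemia, MYC is also a direct Notch target.

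Promoter windows of 300 bases, from 250 before to 50 after the annotated start, were given by RefSeq (GRCh38.p14) for 36 of the 44 genes. They were searched for the canonical E-box, the letters CACGTG, which read the same on both strands. Of these 36 genes, 21 (58.3%) held it in at least 1 window. The share was 12.0% of the 11444 genes tested on the arrays that had a window, and 8.78% of all 27305 genes with a window. Counted by window, the motif was found in 48.9% of the 45 windows of the listed genes and in 7.26% of all 35116 windows. A match describes the letters only and does not show that MYC binds there. Many listed genes were already known as MYC targets, so these shares describe the list and are no test of it.

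The following stretches of 60 bases lie wholly before the annotated start and show the motif, in capitals, in genes whose log2 changes differed. NAT10 had the largest difference among the listed 40S factors, UTP20 and SRM had intermediate ones, and NOP10 had a log2 change of 0.00. They are printed 5' to 3' on the gene's strand.

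NAT10: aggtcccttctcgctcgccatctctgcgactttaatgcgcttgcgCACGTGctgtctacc
UTP20: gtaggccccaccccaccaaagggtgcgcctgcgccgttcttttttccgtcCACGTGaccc
NOP10: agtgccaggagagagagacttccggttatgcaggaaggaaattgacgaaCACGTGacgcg
SRM: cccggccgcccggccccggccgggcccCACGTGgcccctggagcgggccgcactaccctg

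The stretch of NAT10 is chr11:34105569-34105628 on the plus strand, with the motif starting at position -15 from the annotated start. That of UTP20 is chr12:101280045-101280104, also on the plus strand, with the motif at -10. That of NOP10 is chr15:34343137-34343196 on the minus strand, with the motif at -11 and another match farther out at -170. That of SRM is chr1:11060185-11060244 on the minus strand, with the motif at -199. No annotated gene of the reference table overlaps these 4 stretches. Among the 31 tested genes with a window, the 19 with the motif had a median log2 change of -0.13, and 15 of them lay below 0. The 12 without it had a median of -0.08, with 11 below 0. The other 40S assembly factors held the motif in 13 of 37 genes (35.1%) and the other 60S factors in 10 of 44 (22.7%). Ribosomal protein genes held it in 2 of 25 (8.0%) for the small and 2 of 38 (5.26%) for the large subunit.

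**Figure D1:**
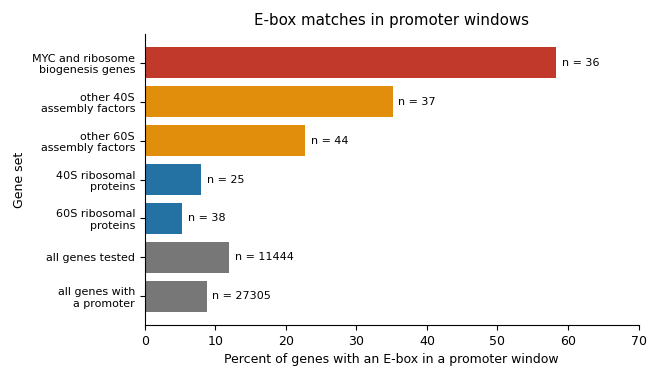
Share of genes with the E-box letters in at least 1 promoter window of 300 bases (bars, percent; n is the number of genes with a window). The listed genes stand at 58.3% and all genes tested at 12.0%.

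The arrays responded to CompE in the genes usually read for Notch inhibition. HES1, a repressor that Notch induces, and OLFM4, a crypt cell glycoprotein gene, fell 2.81-fold and 6.08-fold, and ATOH1, the factor of secretory commitment, rose 6.13-fold (limma adjusted p of 0.000253 to 0.00198, Benjamini-Hochberg over all genes tested). Of all genes tested, 7.14% passed an adjusted p of 0.05, with 653 higher and 368 lower. When each array was centred on its hybridisation controls the split became 340 higher and 1552 lower, and the median of all genes' changes went from 0.02 to -0.12. The median intensity of the arrays lay between 36.9 and 38.6. All 11 epithelial markers checked, EPCAM and CDX2 among them, were above the Bacillus level, with a summed intensity of 30664 to 32191 in DMSO and 31897 to 32435 in CompE. Of the T cell markers 0 of 8 were above it (summed 212 to 248 and 217 to 274), of the fibroblast markers 4 of 7 (293 to 418 and 356 to 359), and of the endothelial markers 1 of 5 (244 to 334 and 248 to 276). In cultures read in bulk, fewer cells of a type and less RNA per cell cannot be told apart.

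Most of the listed genes had slightly lower values in CompE, and no gene of the list passed the threshold. Of the 37 tested, 0 passed in either direction by limma, beside 7.14% of all genes (2.57% lower and 4.56% higher). At an unadjusted p under 0.05 there were 11 lower (29.7%) and 0 higher, beside 9.55% and 15.0% of all genes. Log2 changes lay below 0 for 32 of the 37 (86.5%), beside 45.1% of all genes. Their median was -0.10, a level 1.07-fold lower, beside 0.02 over all genes. In 22 of the 37 every CompE array lay below every DMSO array (59.5%, beside 13.0% of all genes), in 1 every CompE array lay above (2.70%, beside 19.1%), and in 14 the groups overlapped. The genes were proposed with earlier results of these arrays known, so these counts describe the list and are no test of it.

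The differences were small for each gene. They ran from -0.29 for LYAR to 0.10 for ODC1, that is, from percentile 7.79 to percentile 67.4 of all genes' changes. The 95% confidence intervals lay above -1 (a 2-fold lower level) for all 37 genes. The interval that reached lowest belonged to RRP9, with a bound of -0.54, or 1.45-fold lower. The interval that reached highest belonged to PNO1, with a bound of 0.28, or 1.21-fold higher. The median standard error was 0.06 for the listed genes and 0.08 for all genes.

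**Figure D2:**
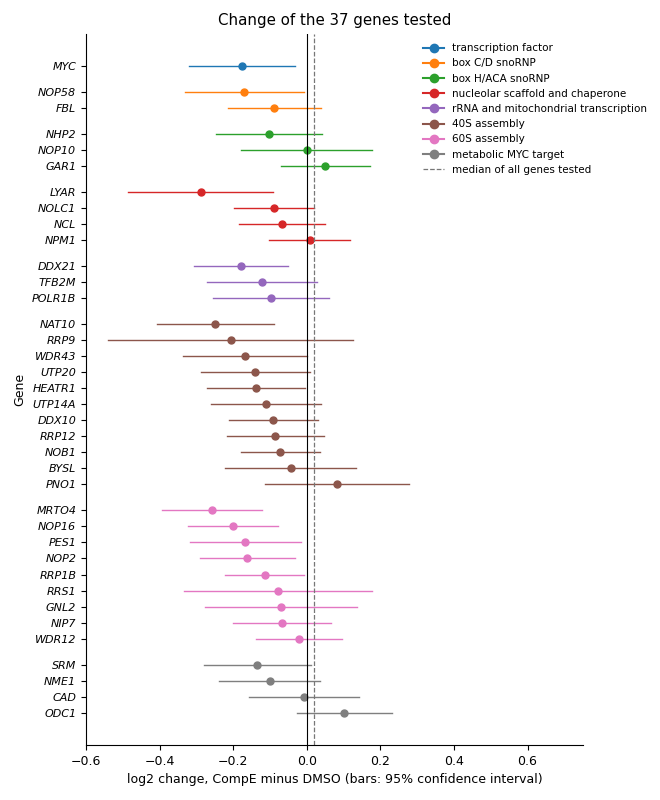
Log2 change, CompE minus DMSO, of each of the 37 genes tested (points) with its 95% confidence interval (bars), coloured by role. Most points lie left of 0 and of the median of all genes (dashed, 0.02), and all bars end above -1.

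The shift was seen on each array and did not come from a single one. After each gene's mean over the 6 arrays was subtracted, the median over the 37 genes was 0.06, 0.04 and 0.06 on the 3 DMSO arrays and -0.04, -0.04 and -0.07 on the 3 CompE arrays. The same median over all genes tested lay between -0.01 and 0.00 in DMSO and between -0.01 and 0.03 in CompE. CompE replicate 3 was the lowest array for 16 of the 37 genes, and 32 had their lowest value in a CompE array. Some control features also differed between the groups. For ACTB, the 3' probe set over the 5' probe set was 1.42 to 1.46 in DMSO and 1.49 to 1.53 in CompE, for GAPDH it was 0.958 to 0.979 and 0.918 to 0.970, where the groups overlapped, and the hybridisation controls were 0.14 log2 units brighter in CompE. Their part in the result was not tested beyond centring on those controls, which leaves the distance between the list and all genes (-0.12) as it is by construction. It lowers every log2 value by the same amount, however, and 17 of the 37 genes then passed, all lower, beside 10.8% of all genes in that direction.

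**Figure D3:**
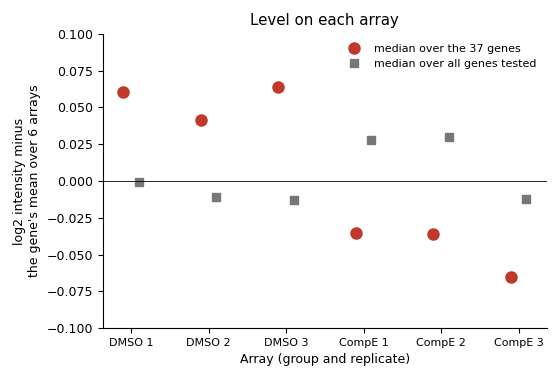
Median over the 37 genes (circles) and over all genes tested (squares) of log2 intensity minus each gene's mean over the 6 arrays, for every array. The circles lie at 0.04 to 0.06 in DMSO and at -0.07 to -0.04 in CompE, while the squares stay between -0.01 and 0.03.

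MYC itself was read at intensities of 3630, 3554 and 3566 on the DMSO arrays and 3326, 3227 and 2977 on the CompE arrays. All CompE values were below all DMSO values, and CompE replicate 3 was the lowest. The difference was 1.13-fold (log2 change -0.18 ± 0.06 SE, 95% interval -0.32 to -0.03), which did not pass over all genes (adjusted p = 0.140). With single arrays left out it lay between -0.21 and -0.13, and its adjusted p between 0.190 and 0.290. It passed, with the lower level in CompE, with arrays centred on the hybridisation controls (log2 change -0.32, adjusted p = 0.0215), where 13.2% of all genes passed. MYC also passed with a trended variance prior (adjusted p = 0.00777), where 15.6% of all genes did. A further pass, among the least variable probe sets (adjusted p = 0.00193, 42.6% of all genes), is no support. Those probe sets were chosen by their small spread within groups on these same arrays, which lowers p-values in advance.

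Of the box C/D snoRNP, the enzyme complex that methylates ribosomal RNA, 2 of 3 genes were tested. NOP58, a core scaffold protein, had 2167, 2312 and 2283 in DMSO and 1995, 1884 and 2140 in CompE. The groups did not overlap, with CompE replicate 3 close below DMSO replicate 1 (log2 change -0.17 ± 0.07, adjusted p = 0.186). FBL, the methyltransferase fibrillarin, was at -0.09 with overlapping groups.

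The box H/ACA snoRNP, which converts uridine to pseudouridine, was the role group nearest to no change. Its 3 tested genes had a median log2 change of 0.00, and in all of them the groups overlapped. NHP2 was at 4125, 3972 and 4060 in DMSO and 3585, 4005 and 3742 in CompE, where only CompE replicate 2 reached the DMSO range (log2 change -0.10 ± 0.06, adjusted p = 0.344). NOP10 was at 0.00 (95% interval -0.18 to 0.18) and GAR1 at 0.05 (-0.07 to 0.17).

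Among the nucleolar scaffold and chaperone genes, LYAR stood lowest of all 37. LYAR, a zinc finger protein of the nucleolus, was at 800, 799 and 809.9 in DMSO and at 697, 587 and 695 in CompE. The DMSO arrays lay within a narrow band and CompE replicate 2 was clearly the lowest. The difference was 1.22-fold (log2 change -0.29 ± 0.08, 95% interval -0.48 to -0.09, adjusted p = 0.0935). NCL (nucleolin) and NOLC1, which carries snoRNPs to the nucleolus, were at -0.07 and -0.09, in both cases with no overlap. NPM1 (nucleophosmin) was at 0.01, with a 95% interval of -0.10 to 0.12, and its other probe sets gave -0.05 and -0.13. NOLC1 shows how much the choice of probe set can matter: its other probe sets gave -0.12 and -0.44. The latter was the only probe set of the list that passed when all 26962 probe sets with 1 gene were tested, where 1.55% passed with a lower level.

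In the group around transcription, DDX21, a helicase that acts in ribosomal RNA synthesis and processing, had 4000, 3804 and 3879 in DMSO and 3494, 3532 and 3301 in CompE. The groups lay well apart (log2 change -0.18 ± 0.05, adjusted p = 0.104), and its other probe set gave -0.20. POLR1B, the second largest subunit of RNA polymerase I, was at -0.10. TFB2M, a transcription factor of mitochondrial DNA, was at -0.12.

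The 11 genes of 40S assembly had a median log2 change of -0.11. Of them 10 lay below 0, beside 45.1% of all genes, and 7 were without overlap, all lower, beside 13.0%. NAT10, which acetylates ribosomal RNA, was at 657, 660.3 and 691 in DMSO and at 528, 600.4 and 565 in CompE. CompE replicate 1 was the lowest and all 3 CompE arrays were below the DMSO range (1.19-fold, log2 change -0.25 ± 0.06, adjusted p = 0.0800). HEATR1, a component of the early small subunit processome, had 868, 802 and 810.3 against 771, 736 and 746 (log2 change -0.14 ± 0.05, adjusted p = 0.191). Of its other 3 probe sets, 2 gave -0.16 and the third, dimmer than the Bacillus level, 0.16. The same direction without overlap was seen in UTP20 (-0.14), WDR43 (-0.17), DDX10 (-0.09), RRP12 (-0.09) and NOB1 (-0.07), the endonuclease that makes the last cut of the small subunit RNA. RRP9, a protein of the U3 snoRNP, was at -0.21 with the widest standard error of the list (0.13) and overlapping groups. UTP14A (-0.11), BYSL (-0.04) and PNO1 (0.08), a late assembly factor, overlapped too. The other probe sets of PNO1 gave -0.07 and 0.02.

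The 9 tested genes of 60S assembly all lay below 0, beside 45.1% of all genes, with a median of -0.11. Of them 6 had no overlap, all lower, beside 13.0% of all genes. MRTO4, which holds the place of the stalk protein on the immature large subunit, was at 679, 675 and 663 in DMSO and 585, 532 and 572 in CompE. This was the smallest p of the list, just short of the threshold (1.20-fold, log2 change -0.26 ± 0.06, 95% interval -0.39 to -0.12, adjusted p = 0.0508). Its other probe set gave -0.37. MRTO4 passed with quantile normalization, median centring and averaged probe sets (limma adjusted p = 0.0404, 0.0397 and 0.0480). In those fits 5.35% to 7.83% of all genes passed, in either direction. A filter of the lowest 60%, centring on the hybridisation controls and a trended variance prior also passed it (0.00631 to 0.0304). There the share was 13.2% to 16.1%. It did not pass with the replicate number as a block (0.156) or with any single array left out. NOP16, an early large subunit factor and MYC target, had 1081, 1038 and 1020 in DMSO and 928, 914 and 888 in CompE (log2 change -0.20 ± 0.05, adjusted p = 0.0716). Both sets of values lay apart by more than their spread. Of its 3 other probe sets, the bright probe set gave -0.18, and the dim ones, with standard errors of 0.19 and 0.33, gave -0.16 and 0.13. NOP16 passed in the same fits as MRTO4 (limma adjusted p of 0.0108 to 0.0425), except with averaged probe sets. There it was at -0.10 (adjusted p = 0.685).

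NOP2, a methyltransferase of large subunit RNA, was at 920.3, 916 and 931 in DMSO and at 853, 838 and 785 in CompE (log2 change -0.16 ± 0.05, adjusted p = 0.130). PES1, a subunit of the PeBoW complex that acts on the large subunit precursor, had 575, 535 and 569 against 511, 516 and 469.8 (log2 change -0.17 ± 0.06, adjusted p = 0.171). Its partner in that complex, WDR12, was at -0.02 with overlapping groups and an interval of -0.14 to 0.10. The other, dimmer probe sets of WDR12 gave -0.15 and -0.23. RRP1B, a nucleolar protein of large subunit processing, had 1653, 1686 and 1698 against 1552, 1540 and 1560, with both groups tightly spaced (log2 change -0.11 ± 0.04, adjusted p = 0.180). NIP7 (-0.07) was also without overlap, whereas GNL2 (-0.07) and RRS1 (-0.08) overlapped. The other probe set of NIP7, of similar brightness, gave -0.23.

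Of the 4 metabolic targets of MYC, 3 lay below 0 and 1 above, and 0 passed. SRM, the spermidine synthase, had 726, 715 and 695 in DMSO and 639, 689 and 619 in CompE, with CompE replicate 2 close to the DMSO range (log2 change -0.13 ± 0.06, adjusted p = 0.2300). ODC1, the ornithine decarboxylase that starts the same polyamine pathway, was the gene of the list with all CompE arrays higher, at 4763, 4651 and 4637 in DMSO against 5034, 5241 and 4820 in CompE (log2 change 0.10 ± 0.05, adjusted p = 0.291), but its sign turned with centring on the hybridisation controls (-0.040). Its array values were chosen after they were seen. NME1, a nucleoside diphosphate kinase, was at -0.10 without overlap. CAD, which starts pyrimidine synthesis, was at -0.01 with an interval of -0.16 to 0.14.

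**Figure D4:**
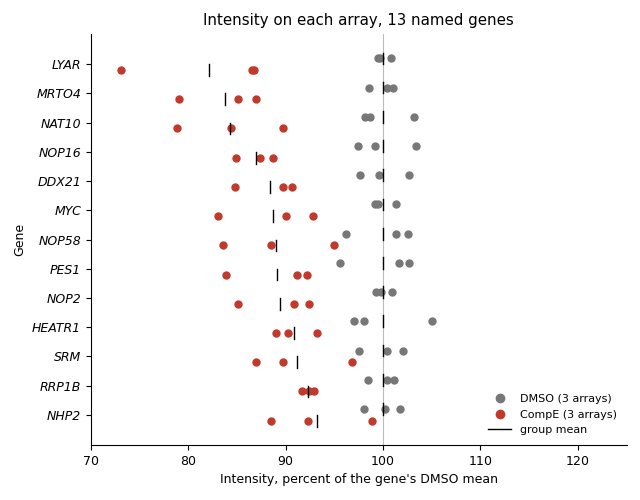
Intensity on each of the 6 arrays as a percent of the gene's own DMSO mean, for the 13 genes given with all array values under the naming rule (grey, DMSO; red, CompE; bars, group means). Groups overlap only for NHP2.

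Probe sets other than the brightest gave much the same picture. The 37 genes had 63 probe sets past the filter, of which 54 lay below 0. Of the 26 that were not the brightest of their gene, 22 lay below 0, with a median of -0.16. Signs disagreed between probe sets of the same gene in 5 of the 16 genes that had more than 1.

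Other genes of the pathway were taken from lists written from textbook knowledge. Of 42 other 40S assembly factors tested, 35 lay below 0 (83.3%, beside 45.1% of all genes) with a median of -0.08. In the limma fit 1 fell and 0 rose, beside 2.57% and 4.56% of all genes, so the number that fell is near the share of all genes. The gene that fell was IMP4, a partner of the U3 snoRNP, which went from 998 ± 13.9 to 807 ± 23.3 (mean ± SD, n = 3 arrays, log2 change -0.31, limma adjusted p = 0.0228). Beside the same shares of all genes, 38 of 46 other 60S factors lay below 0 (82.6%) with a median of -0.09, and 0 rose while 2 fell. They were RRP1, the paralog of RRP1B (358 ± 16.6 to 285 ± 12.2, n = 3; -0.33, limma adjusted p = 0.0347), and SENP3, a SUMO protease of the nucleolus (299.98 ± 29.4 to 217 ± 18.1, n = 3; -0.47, limma adjusted p = 0.0468). The calls of IMP4, RRP1 and SENP3 did not survive the loss of any single array (adjusted p up to 0.0902, 0.108 and 0.142). Those of RRP1 and SENP3 also ended when probe sets of a gene were averaged (-0.14 and -0.16). Without the filter on dim probe sets, the calls of IMP4, RRP1 and SENP3 ended (adjusted p = 0.0660, 0.0891 and 0.110). They ended as well with the replicate number as a block (0.128, 0.144 and 0.130).

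Ribosomal protein genes, the parts that these factors assemble, had medians near that of all genes (0.02), but fewer of them lay below 0. The 21 tested for the small subunit had a median of 0.01, with 2 below 0 (9.52%, beside 45.1% of all genes). The 31 for the large subunit had a median of 0.02, with 7 below 0 (22.6%). By limma 0 passed in either list, beside 7.14% of all genes, and 0 had an unadjusted p under 0.05. Their largest differences in either direction were -0.06 and 0.09. The genes with the smallest p were RPS3 (0.06, adjusted p = 0.496) and RPL10A (0.07, adjusted p = 0.432), whose signs turn when arrays are centred on the hybridisation controls (-0.086 and -0.077), as do the medians of both lists (-0.13 and -0.13). Families with many pseudogenes, such as these, may share probes with their copies. Of the 14 tested genes of RNA polymerase I and its initiation factors, 8 lay below 0 with a median of -0.02, and 0 passed by limma. At an unadjusted p under 0.05 there were 2 lower and 1 higher, beside 9.55% and 15.0% of all genes. POLR1F had the smallest p there (-0.26, adjusted p = 0.0641). Averaged over its probe sets it was at -0.085 (adjusted p = 0.506). POLR1F passed with quantile normalization (limma adjusted p = 0.0470), where 7.83% of all genes passed. A filter of the lowest 60%, centring on the hybridisation controls and a trended variance prior also passed it (0.0192 to 0.0326). In those fits 13.2% to 16.1% of all genes passed. Its pass among the least variable probe sets is no support, since these were chosen by their spread on the same arrays.

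**Figure D5:**
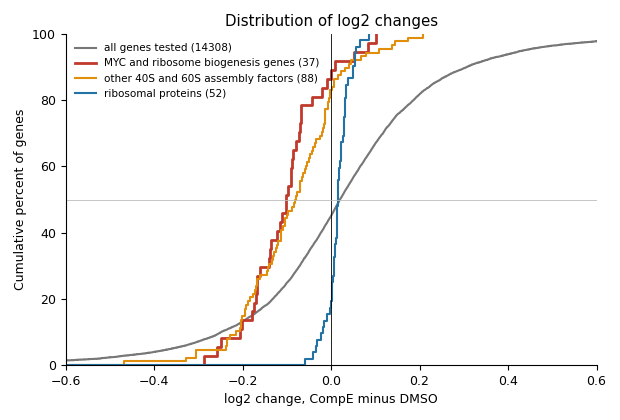
Cumulative percent of genes against log2 change, CompE minus DMSO, for the 37 listed genes, the 88 other assembly factors, 52 ribosomal protein genes and all 14308 genes tested; the axis is cut at -0.6 and 0.6. The listed genes cross 50% at -0.10 and all genes at 0.02.

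In the MYC partner network, a list of relatives, partners and regulators of MYC, 3 of 14 tested genes rose and 0 fell in the limma fit. The shares of all genes were 4.56% and 2.57%. The median of the 14 was 0.04 and turned to -0.10 with centring on the hybridisation controls. MYCL, the MYC family member first found in lung cancer, rose 1.74-fold, from 788, 773 and 819 in DMSO to 1405, 1375 and 1353 in CompE (log2 change 0.80 ± 0.05, adjusted p = 0.00173). The values of both groups lay far apart. MLXIP, which encodes the glucose-responsive factor MondoA, rose 1.43-fold, from 975 ± 16.2 to 1397 ± 33.0 (n = 3, limma adjusted p = 0.00464). MXD3, a partner of MAX that represses transcription, rose 1.52-fold, from 179 ± 4.38 to 274 ± 25.7 (n = 3, limma adjusted p = 0.0135). MAX itself was at 0.01 (adjusted p = 0.942) and MYCN at 0.10 (adjusted p = 0.616). The call of MXD3 ended when any DMSO array was left out (highest adjusted p 0.0616), and that of MLXIP when its probe sets were averaged (adjusted p = 0.0651). Both calls also ended with the replicate number as a block (adjusted p = 0.0846 for MXD3 and 0.0630 for MLXIP). MYCL kept its call in each of these fits.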

How the data were processed

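RNA of 6 LS174T cultures was amplified from the 3' end, labelled with biotin and hybridised to Affymetrix U133 Plus arrays. The authors deposited a linear intensity for each probe set, normalized between arrays with dChip, per the labels and the design text. The dChip version and model remain not given in the sources used here. Intensities were raised to at least 1 before log2 was taken. The 62 control probe sets, the lowest 40% by mean log2 (below an intensity of 24.4) and probe sets with no gene or several were left out. Symbols of the platform annotation were updated through Entrez identifiers (41037 of 41091 probe sets with 1 gene matched). The brightest probe set stood for its gene. CompE was compared with DMSO by limma 3.58.1 in R 4.3.3 (lmFit, eBayes, two-sided, no covariate), with Benjamini-Hochberg adjustment over 14308 genes; the script was tested on simulated data. Values are relative to the other transcripts of an array. Precision is limited by the number of arrays.

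The genes and lists were chosen with earlier results of these data known. Array values are given for MYC, for listed genes with an unadjusted p under 0.05 and for the smallest p of each role; from other lists, up to 3 genes that passed, or else the smallest p. Other genes, and the array values of ODC1, were chosen after their values were seen. Same-numbered DMSO and CompE arrays did not deviate together (r from -0.10 to 0.02), so arrays were treated as unpaired. Promoter windows came from RefSeq, and motif searches used Python 3.11.15. Alternatives covered the filter, scaling, floor, probe set choice, variance prior, replicate block and single arrays left out.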

Additional observations from a re-analysis of the deposited data

How the results depend on the processing

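The count of listed genes past the threshold, 0, depended on the setting, as did the share of all genes that passed. It was 4 with the stricter filter (16.1% of all genes), 2 with quantile normalization (7.83%), 2 with median centring (7.43%), 17 with centring on hybridisation controls (13.2%), 1 with averaged probe sets (5.35%), 14 of 34 among the 10,896 least variable probe sets (42.6%) and 8 with a trended variance prior (15.6%). All of these were lower in CompE, whereas the shares in brackets count genes in either direction. Counted lower only, all genes gave 634 of 10843 with the stricter filter, 453 of 14306 with quantile normalization and 448 of 14308 with median centring. They gave 1552 of 14308 (10.8%) with centring on hybridisation controls and 304 of 14308 with averaged probe sets. Among the least variable probe sets they gave 1159 of 6858, and with the trended prior 845 of 14308. The least variable probe sets were chosen by their small spread within groups on these same arrays, which lowers p-values in advance. The count of listed genes was 0 with no filter, a floor of 16, the replicate block and each array left out. Over all genes the count (1021) was 363 with no filter, 1751 with the stricter filter, 1892 with centring on hybridisation controls, 2920 among the least variable probe sets and 2226 with the trended prior. It was 102 with the replicate number as a block, where no DMSO array correlated best with the CompE array of its own number. With single arrays left out it lay between 252 and 519. The median of the listed genes was -0.12 with median centring and with averaged probe sets, -0.24 with centring on hybridisation controls, and -0.12 to -0.085 with single arrays left out. Its distance to the median of all genes was then -0.13 to -0.10. Between 30 and 37 listed genes lay below 0 in every alternative. The 5 genes above 0, GAR1, NOP10, NPM1, ODC1 and PNO1, all lay below 0 with centring on hybridisation controls, and NOP10 and NPM1 did so with quantile normalization and median centring; NPM1 also turned with averaged probe sets. Signs of NOP10, NPM1, CAD, RRS1 and BYSL also turned with single arrays left out. The share of all genes without overlap was not computed in the alternatives, so the next counts are no result about the list. Non-overlapping lower groups numbered 20 to 26, and 34 of 37 with centring on hybridisation controls, which lowers every log2 value. That centring also turned the medians of the MYC partner network (-0.10), both ribosomal protein lists (-0.13 and -0.13) and the polyamine list (-0.13), and the values of ODC1 (-0.040), RPS3 (-0.086) and RPL10A (-0.077). The cause of these changes was not tested.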

Other observations

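Among lists that border on growth control, other MYC target and nucleotide synthesis genes lay mostly below 0, and polyamine genes did not. Of 22 tested translation initiation factors and other genes often counted as MYC targets, 17 lay below 0 (77.3%, beside 45.1% of all genes). Their median was -0.09. In the limma fit 1 rose and 1 fell, beside 4.56% and 2.57% of all genes. TERT, the catalytic subunit of telomerase, rose from 41.9, 44.2 and 38.4 in DMSO, below the Bacillus level, to 93.3, 93.9 and 94.3 in CompE, at least 2.05-fold over that level (limma adjusted p = 0.00131). Averaged over its probe sets the log2 change of TERT was 0.52 (adjusted p = 0.0165). CCND2, a D-type cyclin gene, fell from 129.9, 109 and 118 to 58.7, 67.6 and 65.3 (log2 change -0.90, limma adjusted p = 0.00597). Averaged over its probe sets the value of CCND2 was -0.15 (adjusted p = 0.595), and its call also ended with the replicate block (adjusted p = 0.0712). Of 16 tested genes of purine and pyrimidine synthesis, 12 lay below 0 with a median of -0.09, and 0 passed by limma. At an unadjusted p under 0.05 there were 3 lower and 1 higher, beside 9.55% and 15.0% of all genes. IMPDH1, which makes guanine nucleotide precursors, was closest at -0.24 (adjusted p = 0.0578). It passed with quantile normalization and median centring (limma adjusted p = 0.0469 and 0.0448), where 7.83% and 7.43% of all genes passed. The stricter filter, centring on the hybridisation controls and the trended variance prior also passed it (0.00178 to 0.0240). In those fits 13.2% to 16.1% of all genes passed. Its pass among the least variable probe sets is no support, for the reason given above.

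Of 11 polyamine genes outside the list, 5 lay below 0 (45.5%, beside 45.1% of all genes). Their median was 0.01 (-0.13 with centring on the hybridisation controls). In the limma fit 1 fell and 0 rose, beside 2.57% and 4.56% of all genes. SAT1, which acetylates polyamines for breakdown and export, went from 3665, 3996 and 3581 in DMSO to 3031, 2883 and 3097 in CompE (log2 change -0.32, limma adjusted p = 0.0417). Its call was lost without any single array (adjusted p up to 0.125). The same held with no filter on dim probe sets (adjusted p = 0.103) and with the replicate block (adjusted p = 0.157).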
